A study of Mus musculus with 18 samples.

Results

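The genes described here are 10 genes of phosphate, vitamin D and parathyroid hormone (PTH) handling in the kidney: Pth1r, Kl, Fgfr1, Vdr, Cyp27b1, Cyp24a1, Slc34a1, Slc34a3, Slc20a2 and Slc9a3r1. They were chosen by name, with earlier results of these data known, and each was found once among the 32675 genes of the deposited table. All 10 passed the filter on low counts. Right kidneys of 18 male wild-type C57BL/6 mice were subjected to bulk sequencing of poly(A) RNA, with 6 mice in each of 3 groups. The samples are labelled 6 weeks old, which the paper's methods give as the age at which the mice were obtained. Adaptive feeding and the 2 weeks of the defeat period followed, so the kidneys came from older mice. Mice of the PBS and FLX groups underwent chronic social defeat stress (CSDS), in which an aggressive CD-1 mouse attacked them for 10 min a day over 2 weeks. During this time the FLX group received fluoxetine, a selective serotonin reuptake inhibitor, at 10 mg per kg by daily intraperitoneal injection, and the PBS group received phosphate-buffered saline the same way. The Ctrl group was handled daily, and no injection is described for it. The effects of defeat and of injection therefore cannot be told apart in PBS versus Ctrl. FLX and Ctrl mice differed in defeat, injection and fluoxetine at once, so these effects cannot be told apart in FLX versus Ctrl either. No group received fluoxetine without defeat.

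Phosphate is reclaimed from the urine mostly in the proximal tubule, by sodium-phosphate cotransporters of the brush border. PTH, acting through Pth1r, and fibroblast growth factor 23 (FGF23), acting through Fgfr1 and its co-receptor klotho (Kl), withdraw these transporters from the membrane, a step in which the scaffold protein encoded by Slc9a3r1 takes part. The same hormones set the level of active vitamin D: Cyp27b1 makes it, Cyp24a1 breaks it down, and it acts through the nuclear receptor Vdr, which is a strong inducer of Cyp24a1.

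Total counts per mouse were between 48928823 and 79061296. FLX replicates 3 to 6 had 48928823 to 52073640, below the 72149987 to 79061296 of the other 14 mice. PBS replicate 6 stood apart from the other PBS mice and was taken as the PBS mouse that the study deleted, although the study's text does not name it. It had 49.2 FPKM (fragments per kilobase of exon, scaled to the depth of the library) of Lcn2, a gene of injured tubules and neutrophils, against 0.985 to 4.42 FPKM in the other 5 PBS mice. Values are given for 5 PBS mice, and log2 fold changes with all 6 are given for Cyp24a1, Kl, Slc20a2 and Gc beside them and for the remaining 7 of the 10 genes together further on. Groups were compared with edgeR's quasi-likelihood test on the counts, and a gene was called at a p, adjusted over all genes tested, under 0.05. Levels are mean FPKM ± SD. Each replicate is labelled as a sample of its own and is taken as 1 mouse.

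Of the 10 genes, Cyp24a1 was the one that was called in any comparison. It was lower in FLX mice than in Ctrl mice. In bulk kidney RNA, fewer cells of a type and less RNA per cell cannot be told apart. In PBS versus Ctrl, edgeR called 0 of the 10 genes, against 3.81% of the 20251 genes tested, and 2 of them had an unadjusted p under 0.05, against 17.9%. In FLX versus PBS it called 0, against 0.726%, and 1 had an unadjusted p under 0.05, against 11.1%. DESeq2 called 0 and 1 of them in these comparisons. In FLX versus Ctrl edgeR called 1, against 3.67%, and 2 had an unadjusted p under 0.05, against 20.4%. The groups overlapped for each of the 10 genes in each comparison, while they did not overlap for 3.52%, 2.92% and 3.4% of all genes. With all 6 PBS mice, 19946 genes were tested and 0, 1 and 1 of the 10 were called in PBS versus Ctrl, FLX versus PBS and FLX versus Ctrl, against 4.28%, 0.557% and 1.77% of genes. The 3 comparisons share mice, so their results are not independent of each other. The number of mice limits what could be seen: the standard errors of the log2 fold changes were between 0.08 and 0.18 for 8 of the genes and between 0.30 and 0.53 for Cyp24a1 and Cyp27b1, whose levels varied most between mice of a group.

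**Figure D1:**
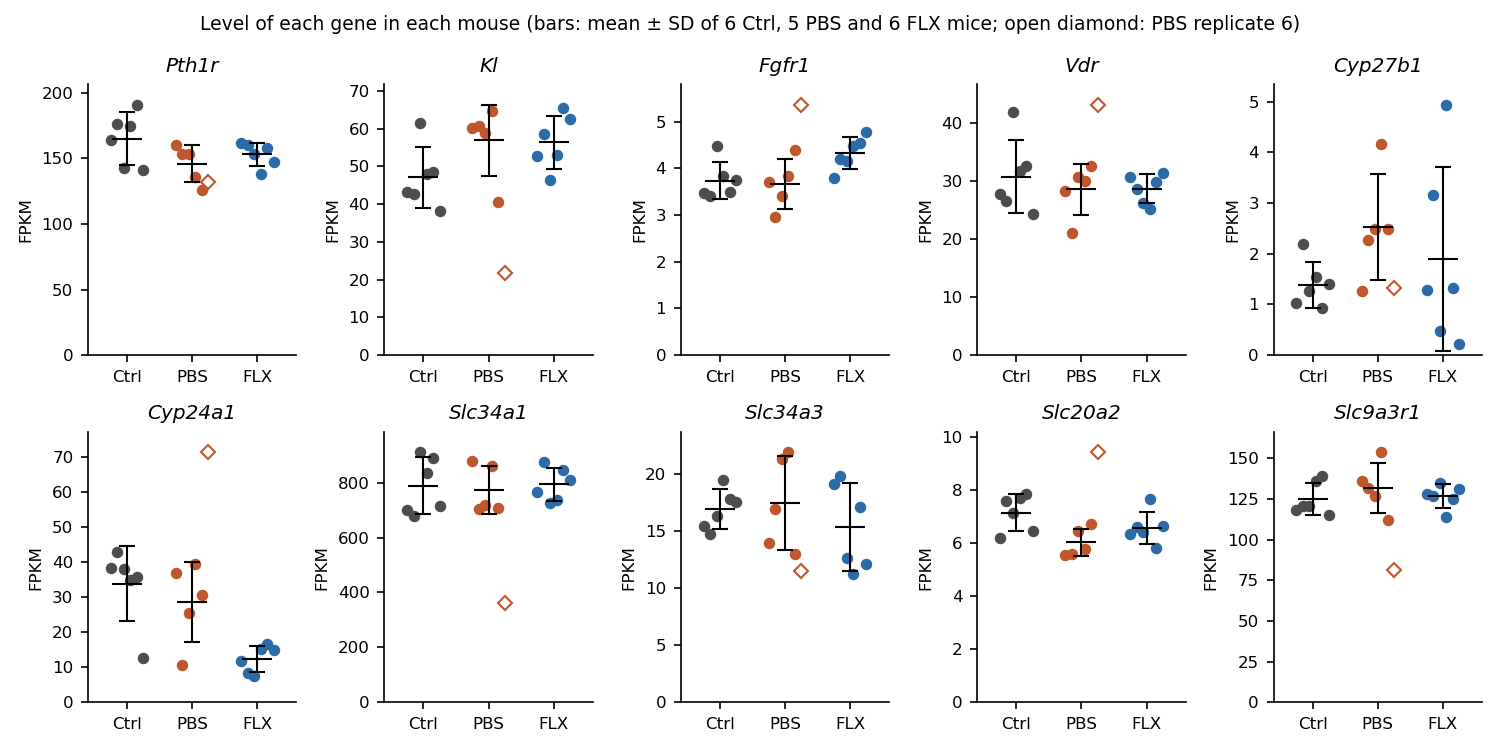
FPKM of each of the 10 genes in each mouse, on linear axes from 0. Points are mice, bars are the mean ± SD of 6 Ctrl, 5 PBS and 6 FLX mice, and the open diamond is PBS replicate 6; the FLX mice had 7.53 to 16.7 FPKM of Cyp24a1, while the ranges of the groups also overlapped for the other genes, least in Cyp27b1 and Slc20a2 of the PBS mice.

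Cyp24a1 (ENSMUSG00000038567, GRCm38 chromosome 2, 170482708 to 170497145, minus strand) encodes the 24-hydroxylase that inactivates vitamin D. In the Ctrl group its level was 12.6 FPKM in replicate 6 and 35.0 to 42.9 FPKM in the other 5 mice, with a median of 36.9 FPKM. The 5 PBS mice had 36.8, 10.6, 25.4, 39.3 and 30.6 FPKM, and the left-out PBS replicate 6 had 71.4 FPKM. The FLX mice had 11.7, 8.34, 7.53, 15.1, 16.7 and 14.8 FPKM. Each FLX mouse was thus below 5 of the 6 Ctrl mice and below 4 of the 5 PBS mice, and the overlap came from Ctrl replicate 6 and PBS replicate 2.

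The mean level of Cyp24a1 was 33.8 ± 10.7 FPKM (SD, n = 6) in Ctrl mice, 28.6 ± 11.4 (SD, n = 5) in PBS mice and 12.4 ± 3.78 (SD, n = 6) in FLX mice. The log2 fold change in FLX versus Ctrl was -1.55 (standard error 0.30, edgeR adjusted p = 0.0109), which is a level 0.341 times that of Ctrl. An exact two-sided permutation test of the mean log2(FPKM + 0.1) gave p = 0.00866, where the smallest p it could give was 0.00216. The call stayed with all 6 PBS mice in the model (adjusted p = 0.0295) and with each of 17 mice left out in turn, with adjusted p between 0.00276 and 0.0316. It was lost with FLX replicates 1 and 2 alone, the FLX mice sequenced as deeply as the other groups. There the log2 fold change of Cyp24a1 was -1.79 (edgeR adjusted p = 0.222). That fit had only 2 FLX mice, so depth and the smaller number of mice cannot be told apart in the lost call.

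In FLX versus PBS the log2 fold change of Cyp24a1 was -1.32 (standard error 0.31), and this missed the threshold with 5 PBS mice (edgeR adjusted p = 0.0575, exact permutation p = 0.0195). With all 6 PBS mice it was -1.62 (adjusted p = 0.0358, exact permutation p = 0.0108). The call thus rested on which PBS mice were used: leaving out PBS replicate 2, which had the least Cyp24a1 of them, gave an adjusted p of 0.0136, and leaving out PBS replicate 4 gave 0.18. DESeq2 gave 0.00978 with 5 PBS mice, and leaving out Ctrl replicate 6 from the shared model gave 0.0237. PBS mice differed from Ctrl mice by -0.23 in Cyp24a1 on the log2 scale (standard error 0.31, edgeR adjusted p = 0.761), and by 0.07 with all 6 PBS mice.

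Cyp27b1 (ENSMUSG00000006724, chromosome 10, 127048250 to 127053006, plus strand) encodes the 1-alpha-hydroxylase that makes active vitamin D, and was the least abundant of the 10 genes, with 35 to 979 counts per mouse. The Ctrl mice had 0.938 to 2.2 FPKM (median 1.33). The 5 PBS mice had 1.27, 2.27, 2.48, 4.16 and 2.48 FPKM, and PBS replicate 6 had 1.32. The FLX mice had 1.29, 3.15, 0.467, 4.94, 1.32 and 0.225 FPKM, so that the highest and the lowest of all 18 mice were both FLX mice. In PBS versus Ctrl, 4 of 5 PBS mice were above every Ctrl mouse. The mean was 1.39 ± 0.455 FPKM (SD, n = 6) in Ctrl mice and 2.53 ± 1.04 (SD, n = 5) in PBS mice, and the log2 fold change was 0.88 (standard error 0.53, edgeR adjusted p = 0.414). The exact permutation p was 0.0281, and 0.0649 with PBS replicate 6 included. The FLX mean was 1.9 ± 1.81 FPKM (SD, n = 6), at a log2 fold change of -0.54 from PBS (standard error 0.53, edgeR adjusted p = 0.795) and of 0.34 from Ctrl (standard error 0.50, adjusted p = 0.755). Leaving out FLX replicate 4 gave -0.15 for Cyp27b1 in FLX versus Ctrl and limma on log2(FPKM + 0.1) gave -0.10, so that its direction was not settled.

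**Figure D2:**
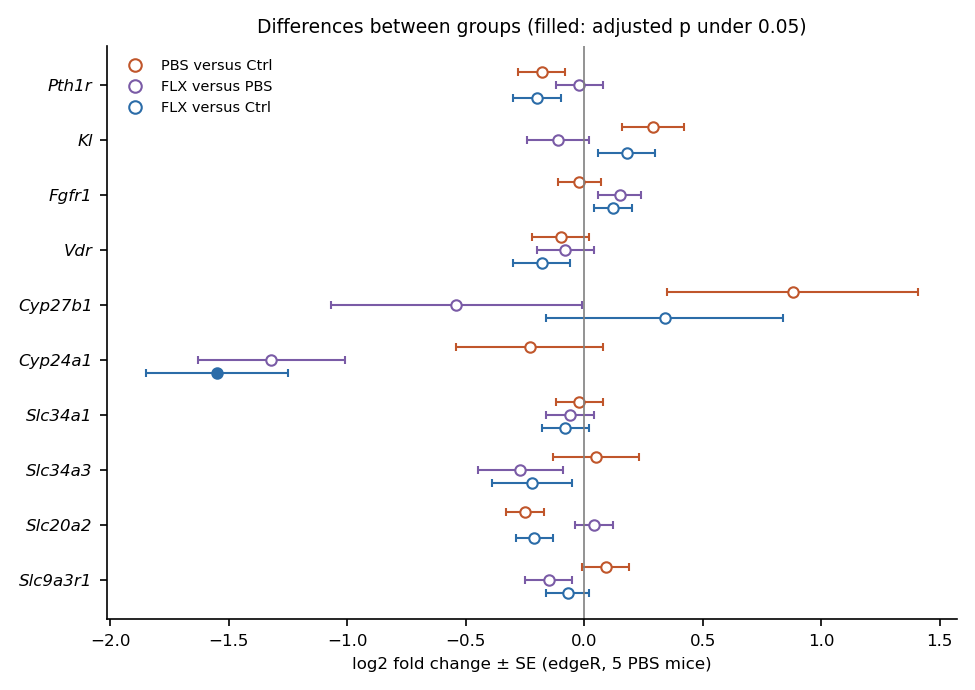
Log2 fold change of each of the 10 genes, on the horizontal axis, in the 3 comparisons with 5 PBS mice. Circles are edgeR estimates, bars are ± 1 standard error, and a filled circle marks an adjusted p under 0.05; the 1 filled circle is Cyp24a1 in FLX versus Ctrl, at -1.55.

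Among the receptors, Pth1r (ENSMUSG00000032492, chromosome 9, 110722085 to 110747145, minus strand) had the highest level. It encodes the receptor of PTH. Ctrl mice had 141 to 191 FPKM (median 170), PBS mice 126 to 160 (median 153) and FLX mice 138 to 162 (median 156). Both groups of defeated mice lay toward the lower end of the Ctrl range, with 2 of 5 PBS mice and 1 of 6 FLX mice below every Ctrl mouse. PBS and FLX mice differed from Ctrl mice by -0.18 and -0.20 on the log2 scale (standard error 0.10 each, edgeR adjusted p = 0.404 and 0.269), so that neither difference was called.

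Kl (ENSMUSG00000058488, chromosome 5, 150952607 to 150993817, plus strand) encodes klotho, the co-receptor through which FGF23 acts. Its level was 38.3 to 61.5 FPKM (median 45.6) in Ctrl mice and 46.5 to 65.4 (median 55.7) in FLX mice. The 5 PBS mice had 60.3, 60.6, 58.9, 64.7 and 40.7 FPKM, so that 4 of them stood above 5 of the 6 Ctrl mice. The log2 fold change in PBS versus Ctrl was 0.29 (standard error 0.13), with an unadjusted p under 0.05 but not an adjusted one (edgeR adjusted p = 0.24). The exact permutation p of this difference was 0.110. PBS replicate 6 had 21.9 FPKM, the lowest of all mice, and its inclusion gave a log2 fold change of 0.13 for Kl (adjusted p = 0.770).

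Fgfr1 (ENSMUSG00000031565, chromosome 8, 25513654 to 25575718, plus strand) encodes the fibroblast growth factor receptor that pairs with klotho. It had 3.41 to 4.48 FPKM (median 3.63) in Ctrl mice, 2.95 to 4.40 (median 3.72) in the 5 PBS mice and 3.79 to 4.78 (median 4.35) in FLX mice. In FLX mice, 3 of 6 were above every Ctrl mouse and 3 of 6 above every one of the 5 PBS mice. On the FPKM scale the exact permutation p was 0.0238 in FLX versus Ctrl and 0.0346 in FLX versus PBS. On the counts the log2 fold change of Fgfr1 was 0.12 (standard error 0.08, edgeR adjusted p = 0.431) and 0.15 (standard error 0.09, adjusted p = 0.602), and neither was called. FPKM of the FLX mice were higher than the scaled counts for genes in general, by a median of 0.086 on the log2 scale against Ctrl and 0.090 against PBS, so a small difference in FPKM of FLX mice is read here from the counts.

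Vdr (ENSMUSG00000022479, chromosome 15, 97854425 to 97910630, minus strand), the vitamin D receptor gene, had 24.2 to 41.8 FPKM (median 29.7) in Ctrl mice, 21.0 to 32.5 (median 30.0) in the 5 PBS mice and 25.1 to 31.3 (median 29.2) in FLX mice. All FLX mice lay within the Ctrl range. The log2 fold changes were -0.10 in PBS versus Ctrl, -0.08 in FLX versus PBS and -0.18 in FLX versus Ctrl (standard error 0.12 each, edgeR adjusted p = 0.740, 0.883 and 0.402). No difference in the level of Vdr passed the test.

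The phosphate transporters were led by Slc34a1 (ENSMUSG00000021490, chromosome 13, 55398187 to 55415592, plus strand), which encodes the main sodium-phosphate cotransporter of the proximal tubule. With a mean of 762 FPKM over the 18 mice it ranked 40 among the 32675 genes. Ctrl mice had 678 to 912 FPKM (median 775), the 5 PBS mice 704 to 879 (median 717) and FLX mice 725 to 874 (median 789). All FLX mice and all 5 PBS mice were inside the Ctrl range. The log2 fold changes were -0.02 in PBS versus Ctrl, -0.06 in FLX versus PBS and -0.08 in FLX versus Ctrl (standard error 0.10 each, edgeR adjusted p = 0.958, 0.904 and 0.722).

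Slc34a3 (ENSMUSG00000006469, chromosome 2, 25228898 to 25234364, minus strand) encodes another cotransporter of the same family. It had 14.7 to 19.4 FPKM (median 16.9) in Ctrl mice. Defeated mice were more spread, with 13.9, 16.9, 21.3, 21.9 and 13.0 FPKM in the 5 PBS mice and 19.1, 19.8, 12.6, 11.2, 17.1 and 12.1 FPKM in the FLX mice. The standard deviation was 1.72 FPKM in Ctrl mice, 4.12 in PBS mice and 3.83 in FLX mice; this difference in spread was not tested. The log2 fold changes were 0.05 in PBS versus Ctrl, -0.27 in FLX versus PBS and -0.22 in FLX versus Ctrl (edgeR adjusted p = 0.915, 0.632 and 0.503).

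Slc20a2 (ENSMUSG00000037656, chromosome 8, 22476788 to 22569612, plus strand) encodes a phosphate transporter of another family. Ctrl mice had 6.20 to 7.86 FPKM (median 7.37), and the 5 PBS mice had 5.57, 5.60, 6.46, 5.80 and 6.72 FPKM. In PBS versus Ctrl, 3 of 5 PBS mice were below every Ctrl mouse, and the log2 fold change was -0.25 (standard error 0.08, unadjusted p = 0.00781 and edgeR adjusted p = 0.109). The exact permutation p was 0.0216. FLX mice had 5.82 to 7.66 FPKM (median 6.51), at a log2 fold change of -0.21 from Ctrl (standard error 0.08, unadjusted p = 0.0153 and edgeR adjusted p = 0.141). PBS replicate 6, at 9.45 FPKM, had the most Slc20a2 of all mice, and its inclusion gave -0.13 in PBS versus Ctrl (adjusted p = 0.546).

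Slc9a3r1 (ENSMUSG00000020733, chromosome 11, 115163341 to 115181181, plus strand) encodes NHERF1, the scaffold that holds phosphate transporters in the brush border. It had 115 to 139 FPKM (median 121) in Ctrl mice, 112 to 154 (median 132) in the 5 PBS mice and 114 to 135 (median 127) in FLX mice. The ranges of the groups overlapped almost fully. The log2 fold changes were 0.09 in PBS versus Ctrl, -0.15 in FLX versus PBS and -0.07 in FLX versus Ctrl (edgeR adjusted p = 0.708, 0.627 and 0.741).

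By mean FPKM, which is per length of transcript, the order of the 10 genes was Slc34a1, Pth1r, Slc9a3r1, Kl, Vdr, Cyp24a1, Slc34a3, Slc20a2, Fgfr1 and Cyp27b1. Over 17 mice, the ranges of Pth1r and Slc9a3r1 overlapped, as did those of Kl and Vdr, Vdr and Cyp24a1, Cyp24a1 and Slc34a3, and Fgfr1 and Cyp27b1. The ranges of the other neighbours in this order did not overlap. The lowest Slc34a1, 678 FPKM, was above the highest Pth1r, 191 FPKM.

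PBS replicate 6 differed from the other mice for most of these genes. It had the lowest level of all 18 mice for Kl (21.9 FPKM), Slc34a1 (362 FPKM) and Slc9a3r1 (81.3 FPKM). It had the highest for Fgfr1 (5.37 FPKM), Vdr (43.1 FPKM), Cyp24a1 (71.4 FPKM) and Slc20a2 (9.45 FPKM). It was thus the lowest or highest mouse for 7 of the 10 genes, against 29.6% of 19946 genes tested. The other 17 mice were the lowest or highest for 0 to 2 of the 10. Over all genes, Ctrl replicate 3, which was kept, was the lowest or highest mouse for 23.4%, and the remaining mice were for 4.05% to 15.1%. Of the other markers, those of the late proximal tubule summed to 447 FPKM in PBS replicate 6, against 910 to 1550 FPKM in the others, and its Slc7a13, a transporter gene of that segment, was at 6.44 FPKM against 172 to 383. Havcr1, the gene of kidney injury molecule 1, was at 9.75 FPKM in it, against 0.189 to 2.40 FPKM. The 10 neutrophil genes summed to 67.7 FPKM, against 0.431 to 26.5 FPKM. The part of these markers in the levels of the 10 genes was not tested.

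With PBS replicate 6 included, the log2 fold changes in PBS versus Ctrl were -0.21 for Pth1r, 0.07 for Fgfr1, 0.01 for Vdr, 0.75 for Cyp27b1, -0.16 for Slc34a1, -0.04 for Slc34a3 and -0.01 for Slc9a3r1. Those of Fgfr1, Vdr, Slc34a3 and Slc9a3r1 had the opposite sign with 5 PBS mice. In FLX versus PBS they were 0.01 for Pth1r, 0.05 for Fgfr1, -0.19 for Vdr, -0.41 for Cyp27b1, 0.08 for Slc34a1, -0.18 for Slc34a3 and -0.05 for Slc9a3r1, of which those of Pth1r and Slc34a1 had changed sign. Kl and Slc20a2 also changed sign in FLX versus PBS, from -0.11 to 0.05 and from 0.04 to -0.08. None of these differences was called by edgeR with 5 or with 6 PBS mice.

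**Figure D3:**
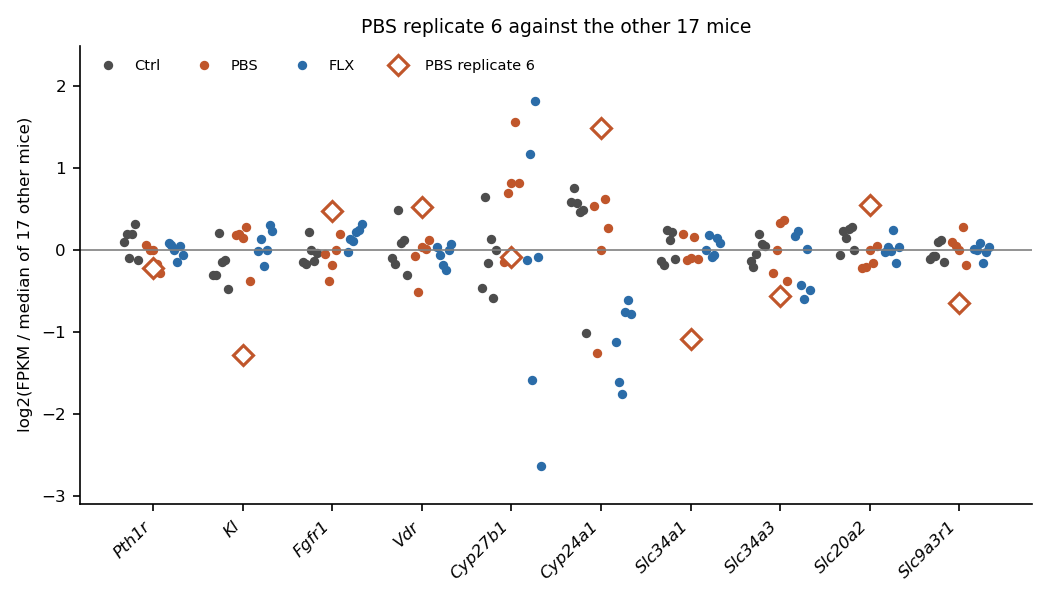
Log2 ratio of each mouse's FPKM to the median of the 17 mice other than PBS replicate 6, for each of the 10 genes along the horizontal axis. Dots are mice coloured by group and the open diamond is PBS replicate 6, which lies outside all other mice for 7 genes, among them Kl and Slc34a1 below and Cyp24a1 above.

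The tissue was checked against marker genes. Slc5a2, a glucose transporter gene of the early proximal tubule, was at 80.2 to 156 FPKM over all 18 mice. Umod, the uromodulin gene of the thick ascending limb, was at 695 to 1260 FPKM. Of 7 adrenal cortex genes, 3 passed the filter, the 7 together summed to 0.572 to 3.79 FPKM, and the aldosterone synthase gene Cyp11b2 was at 0 in every Ctrl and FLX mouse. Among the markers that differed between FLX and Ctrl mice, as Cyp24a1 did, were genes of the circadian clock, which drives daily rhythms in gene expression. Of the 13 clock genes tested, 4 were called and higher and 7 called and lower in FLX versus Ctrl, where 3.67% of all genes were called. In FLX versus PBS, 2 were called and higher and 7 called and lower, against 0.726% of all genes called. The summed level of the clock genes was 53.6 to 59.9 FPKM in FLX mice, 80.0 to 130 FPKM in Ctrl mice and 77.0 to 122 FPKM in the 5 PBS mice. Dbp, a clock output gene, was at 0.694 to 1.69 FPKM in FLX mice and at 9.39 to 22.1 FPKM in Ctrl mice, and Arntl, a core clock gene, was at 2.42 to 3.94 and 0.652 to 1.18 FPKM. Of 6 early proximal tubule genes, Slc6a19, an amino acid transporter gene, was called and lower in FLX mice than in both other groups. It was at 30.5 ± 3.94 FPKM against 55.5 ± 11.2 in Ctrl mice (SD, n = 6 each). The summed level of the 6 genes was 268 to 478 FPKM in FLX and 334 to 460 FPKM in Ctrl mice. Of 8 tubule injury genes, Vcam1 was called and higher in FLX versus Ctrl (median log2 fold change of the list 0.64). Of 5 endothelial genes, Flt1 was called and higher (median 0.45, summed level 27.3 to 41.4 FPKM in FLX and 20.7 to 31.7 FPKM in Ctrl mice). The 8 genes of brown and white fat had a median of 2.22, and summed to 43.9 to 1410 FPKM in FLX mice and 13.9 to 243 FPKM in Ctrl mice. Trpm6 of the distal tubule and Scnn1g of the collecting duct were also called and higher in FLX versus Ctrl. Whether any of these had a part in the level of Cyp24a1 was not tested.

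Other genes of these pathways were described from 5 lists of 66 genes, which were also drawn up with earlier results of these data known, so that their shares are no independent evidence. Of these, 63 were in the table and 59 passed the filter. Ankh, Fgf23 and Mepe were not found by symbol in it, and Pth, Pth2r, Phex and Dmp1, which are hormones, receptors and bone factors, did not pass the filter. In PBS versus Ctrl, 7 of the 59 genes were called and all 7 were higher, which is 11.9%, against 3.81% of all genes tested, in which 433 were higher and 339 lower. The median log2 fold change of the 59 was 0.19, and that of all genes was -0.01. In FLX versus PBS edgeR called 0 and DESeq2 called 1 of the 59, with a median of -0.07. In FLX versus Ctrl 3 were called, all higher, which is 5.08%, against 3.67% of all genes, with a median of 0.07. That count was 9 without Ctrl replicate 3 and 1 without Ctrl replicate 5, and the count in FLX versus PBS was 2 without PBS replicate 5 and 1 without FLX replicate 4.

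The 6 vitamin D target genes of calcium transport, which carry calcium across the distal tubule, were all higher in PBS versus Ctrl by their estimates, with a median log2 fold change of 0.68, and 2 of them were called. Calb1, the gene of the calcium-binding protein calbindin, had 53.7 to 77.0 FPKM in Ctrl mice (median 64.3) and 160, 127, 134, 118 and 77.8 FPKM in the 5 PBS mice. Every PBS mouse was above every Ctrl mouse. Its log2 fold change was 0.95 (standard error 0.17, edgeR adjusted p = 0.00354), and the call stayed in all 29 alternative fits. Trpv5, the calcium channel gene of the distal tubule, was at 3.28 ± 0.407 FPKM in the 6 Ctrl mice and at 5.37 ± 0.513 in the 5 PBS mice (SD). It was thus higher by 0.72 on the log2 scale (standard error 0.13, edgeR adjusted p = 0.00447), also without overlap.

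In FLX versus PBS these 6 genes all had lower estimates, with a median log2 fold change of -0.44, and none was called. Calb1 was at 93.0 ± 20.3 FPKM (SD, n = 6) in FLX mice, and differed by -0.51 from PBS on the log2 scale (standard error 0.17, edgeR adjusted p = 0.199) and by 0.44 from Ctrl (standard error 0.16, adjusted p = 0.132). PBS replicate 5 had the least Calb1 of the PBS mice, and leaving it out gave an adjusted p of 0.0419 for Calb1 in FLX versus PBS. Trpv5 was at 4.99 ± 1.07 FPKM (SD, n = 6) in FLX mice and called against Ctrl (log2 fold change 0.52, standard error 0.13, edgeR adjusted p = 0.0312), but not with all 6 PBS mice in the model (adjusted p = 0.0652), and the call was lost in 8 of 17 fits with 1 mouse left out. The markers of the thick limb and distal tubule summed to 954 to 1350 FPKM in Ctrl mice, 885 to 1540 FPKM in the 5 PBS mice and 901 to 1520 FPKM in FLX mice, which overlapped. Umod of the thick limb weighed most in these sums, at 776 to 1040, 695 to 1260 and 697 to 1230 FPKM in the same groups. The sums therefore say little about the distal tubule. Slc12a3, a distal tubule gene among the 8 markers, was at 59.1 ± 13.4, 68.4 ± 13.7 and 70.0 ± 7.88 FPKM (SD, n = 6, 5 and 6) and was not called. Of those 8 markers, Trpm6, a magnesium channel gene, was called and higher in PBS versus Ctrl and in FLX versus Ctrl.

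**Figure D4:**
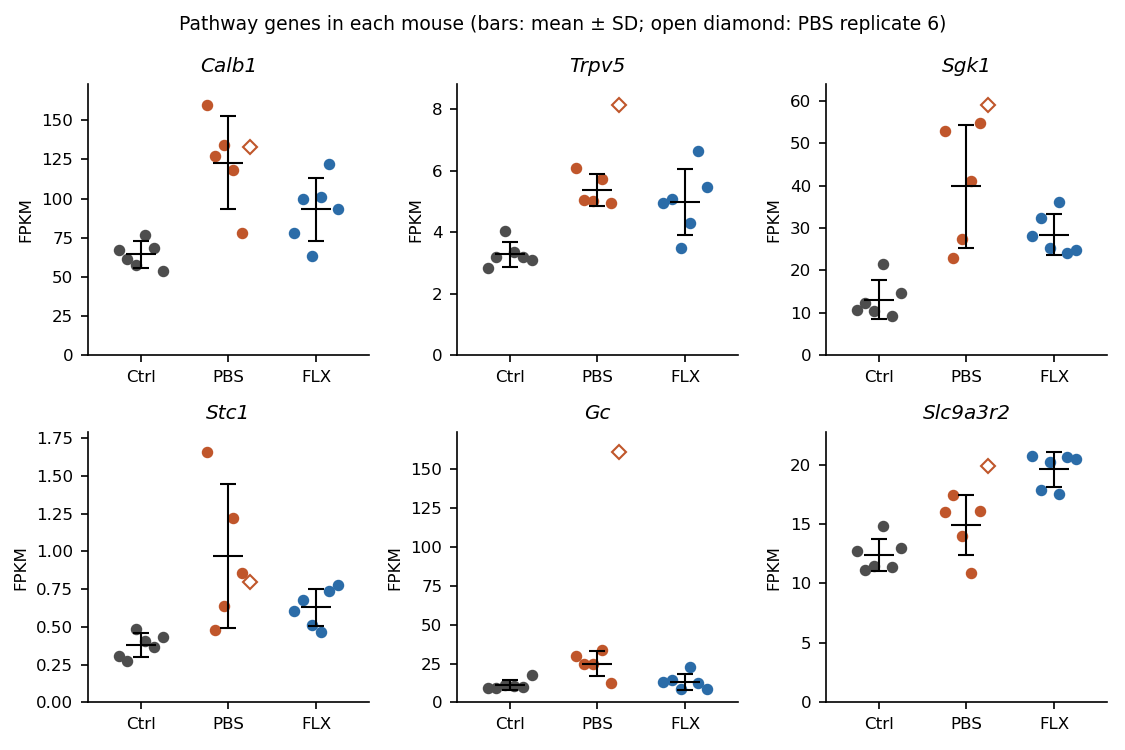
FPKM of 6 genes of the same pathways in each mouse, on linear axes from 0, with bars for the mean ± SD of 6 Ctrl, 5 PBS and 6 FLX mice and an open diamond for PBS replicate 6. Calb1, Trpv5 and Sgk1 of the 5 PBS mice lie above all Ctrl mice, and Slc9a3r2 of the 6 FLX mice lies above all Ctrl mice.

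Of 14 genes of the FGF23 pathway and of phosphate-regulating hormones that were tested, 2 were called and higher in PBS versus Ctrl and 0 called and lower. That is 14.3% called, against 3.81% of all genes tested. By their estimates 12 of the 14 were higher, with a median log2 fold change of 0.24. Sgk1, a kinase gene that steroid hormones induce, was at 9.17 to 21.4 FPKM in Ctrl mice (median 11.4) and at 52.9, 22.9, 27.3, 41.0 and 54.8 FPKM in the 5 PBS mice. Its log2 fold change of 1.61 (standard error 0.23, edgeR adjusted p = 0.000694) was the highest among the called genes of the 5 lists with 5 PBS mice. FLX mice had 24.0 to 36.2 FPKM of Sgk1 (median 26.6), above all Ctrl mice, with a log2 fold change of 1.03 from Ctrl (standard error 0.22, adjusted p = 0.0173) and of -0.58 from PBS (standard error 0.23, adjusted p = 0.314). The call of Sgk1 against Ctrl was lost without Ctrl replicate 5 (adjusted p = 0.0505) and with FLX replicates 1 and 2 alone (adjusted p = 0.221). Stc1, the gene of the phosphate-regulating hormone stanniocalcin 1, was at 0.379 ± 0.0795 FPKM (SD, n = 6) in Ctrl mice and 0.970 ± 0.474 (SD, n = 5) in PBS mice. The difference was 1.38 on the log2 scale (standard error 0.27, edgeR adjusted p = 0.00770), and 4 of the 5 PBS mice exceeded all Ctrl mice. With limma on log2(FPKM + 1) the log2 fold change of Stc1 was 0.48. In FLX mice it was at 0.630 ± 0.123 FPKM (SD, n = 6), with an adjusted p of 0.161 against Ctrl and 0.267 against PBS.

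Of 12 genes of vitamin D uptake and activation and of receptor partners, Gc, which encodes the vitamin D binding protein of plasma, was the 1 called. It was at 9.02 to 17.5 FPKM in Ctrl mice (median 10.2) and at 29.9, 24.4, 24.8, 33.6 and 12.6 FPKM in the 5 PBS mice, and 4 of 5 were above every Ctrl mouse. The log2 fold change was 1.18 (standard error 0.26, edgeR adjusted p = 0.0145). PBS replicate 6 had 161 FPKM of Gc. Its inclusion gave a log2 fold change of 2.07 (adjusted p = 0.0164), so this mouse moved the value by over 1.5 times. FLX mice were at 13.3 ± 5.25 FPKM (SD, n = 6). Their difference of -1.03 from PBS mice on the log2 scale (standard error 0.26) missed the threshold (edgeR adjusted p = 0.0754) and was called without FLX replicate 4, without PBS replicate 5 or with DESeq2 (adjusted p of Gc 0.00362). The call of Gc in PBS versus Ctrl was lost with limma and no filter (adjusted p = 0.0556). Lrp2, the gene of megalin, which takes up filtered vitamin D with its carrier, was at 68.0 ± 13.5, 71.7 ± 11.0 and 69.1 ± 5.70 FPKM in Ctrl, PBS and FLX mice (SD, n = 6, 5 and 6). Amn, the gene of amnionless, which anchors cubilin in the same uptake complex, was at 54.8 ± 6.61, 52.4 ± 5.08 and 53.2 ± 4.49 FPKM. Neither was called in any comparison.

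Of 11 further genes of phosphate transport and scaffolding, 1 was called in PBS versus Ctrl and 1 in FLX versus Ctrl. Slc9a3r2, the gene of NHERF2 and thus the relative of Slc9a3r1, was at 11.1 to 14.8 FPKM in Ctrl mice (median 12.1), 10.9 to 17.4 in the 5 PBS mice (median 16.0) and 17.5 to 20.7 in FLX mice (median 20.3). All 6 FLX mice were above every Ctrl mouse. They were also above each of the 5 PBS mice in FPKM, but by a gap smaller than the general shift in FPKM of the FLX mice. FLX mice were higher by 0.57 on the log2 scale than Ctrl mice (standard error 0.10, edgeR adjusted p = 0.00596) and by 0.31 than PBS mice (standard error 0.11, adjusted p = 0.228). With FLX replicates 1 and 2 alone the call of Slc9a3r2 against Ctrl was lost (adjusted p = 0.166). For Slc9a3r1 the corresponding values were -0.07 and -0.15, and the difference between the 2 scaffold genes was not tested. Ezr, the gene of ezrin, which ties such scaffolds to the cytoskeleton, was called in PBS versus Ctrl (67.7 ± 7.48 FPKM, n = 6, against 92.0 ± 19.6, n = 5, SD; log2 fold change 0.46, standard error 0.12, edgeR adjusted p = 0.0344), but this call was lost in 14 of 29 alternative fits. Alpl, the alkaline phosphatase gene, was at 36.6 to 49.7 FPKM in Ctrl mice and 51.4 to 71.3 FPKM in the 5 PBS mice without overlap, and its adjusted p was 0.0773, or 0.0426 with PBS replicate 6, which had 106 FPKM. With 5 PBS mice Alpl was called with DESeq2 (adjusted p = 0.0252) and without FLX replicate 2 (adjusted p = 0.0396).

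Of 16 genes of the PTH and calcium sensing pathway, Prkar1a, which encodes a regulatory subunit of the kinase that Pth1r activates through cyclic AMP, was the 1 called. It was at 36.6 to 39.4 FPKM in Ctrl mice (median 37.3) and at 46.6, 40.6, 44.3, 46.8 and 45 FPKM in the 5 PBS mice, without overlap. The log2 fold change was 0.26 (standard error 0.06, edgeR adjusted p = 0.0261), and the call was lost in 10 of 29 alternative fits. FLX mice had 40.1 to 50.4 FPKM, also above all Ctrl mice, but by a gap smaller than the general shift in FPKM of the FLX mice. Their difference of 0.20 on the log2 scale of the counts was not called (edgeR adjusted p = 0.0682), but was in 7 of 29 alternative fits, among them DESeq2 and all limma fits. The limma fits use FPKM and so carry the general shift. The lowest adjusted p of Prkar1a, 0.00746, came from limma on log2(FPKM + 1). Gnas, the gene of the G protein alpha subunit that couples the receptor to cyclic AMP, was at 36.3 ± 2.22, 41.8 ± 8.00 and 41.4 ± 3.08 FPKM in Ctrl, PBS and FLX mice (SD, n = 6, 5 and 6), with edgeR adjusted p of 0.249, 0.774 and 0.552 in PBS versus Ctrl, FLX versus PBS and FLX versus Ctrl. Prkaca, the gene of the catalytic subunit of that kinase, was at 20.6 ± 0.929, 23.7 ± 4.32 and 25.1 ± 3.01 FPKM in the same groups, and was called in none of the comparisons (edgeR adjusted p = 0.273, 0.993 and 0.232).

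Other markers also differed in PBS mice and stood beside these genes. The 10 neutrophil genes summed to 7.48 to 26.5 FPKM in the 5 PBS mice, 1.60 to 3.56 FPKM in Ctrl mice and 0.431 to 6.09 FPKM in FLX mice. In PBS versus Ctrl, 3 of the 9 tested were called and higher, while 3.81% of all genes were called. The median log2 fold change of the 9 was 2.66. The 8 tubule injury genes summed to 636 to 1090 FPKM in the 5 PBS mice, 345 to 595 FPKM in Ctrl mice and 456 to 787 FPKM in FLX mice. In PBS versus Ctrl, 2 of the 8 were called and higher, and the median log2 fold change of the 8 was 0.95. Among the 8, Spp1 weighed most in these sums, at 534 to 931, 285 to 532 and 371 to 678 FPKM in the same groups. Markers of the late proximal tubule summed to 910 to 1180 FPKM in the 5 PBS mice, 1030 to 1550 FPKM in Ctrl mice and 1030 to 1420 FPKM in FLX mice. The median log2 fold change of these 6 genes in PBS versus Ctrl was -0.35, while the 1 called, Slc5a10, was higher. Markers of the early proximal tubule summed to 438 to 576 FPKM in the 5 PBS mice and 334 to 460 FPKM in Ctrl mice, and Gatm was called and higher. The 8 genes of brown and white fat summed to 42.1 to 1480 FPKM in the 5 PBS mice and 13.9 to 243 FPKM in Ctrl mice, with a median log2 fold change of 2.19, and Elovl3 was called and higher. Scnn1g of the collecting duct and the clock genes Cry1 and Per1 were called and higher as well. The part of these in the 7 called pathway genes was not tested.

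The genes whose levels over all 18 mice were most like those of 4 members were found by Pearson's r of log2(FPKM + 0.1) among the genes tested, as a description. For Cyp24a1 they were A4galt (r = 0.85, Spearman's rho 0.81), Igfbp1 (0.84 and 0.79) and Gpr146 (0.83 and 0.78). For Slc34a1 they included Susd2 (r = 0.95, rho 0.84) and Aoah (0.93 and 0.83), where PBS replicate 6 was low for Slc34a1 and weighs on r. For Slc34a3 they included Habp2 (r = 0.86, rho 0.88) and Cltrn (0.77 and 0.77). For Cyp27b1 they were Gm4149 (r = 0.79, rho 0.69), Gm17415 (0.79 and 0.81) and Pdcd1 (0.76 and 0.83), and Cyp27b1 had few counts in several mice. The mice share their groups, and these are the highest values among all genes tested, so they are no tests.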

How the data were processed

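RNA from right kidneys of 18 mice was measured. Per the paper's methods, the authors cleaned reads with fastp, mapped them with HISAT-3N to GRCm38 and estimated expression with StringTie. The submitters' processing notes name cutadapt (1.9), HISAT2 (2.0.4), UMI-tools, StringTie (1.3.4d), DESeq2 and edgeR instead, and which set made the table could not be settled. For every gene the table deposited by the authors gives FPKM and an estimated count in each mouse. The counting tool was not given in the sources used here. These deposited estimated counts are whole numbers, but 4 was a more frequent value than 3 (medians of 720 and 484.5 genes per mouse), so they may rest on fewer fragments than they show. Library adapters carried molecular identifiers.

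Groups came from sample titles. Estimated counts were tested with edgeR 4.0.16 (R 4.3.3) by its two-sided quasi-likelihood F test, after TMM scaling and filterByExpr, in 1 model over 6 Ctrl, 5 PBS and 6 FLX mice, with Benjamini-Hochberg adjustment over the 20251 genes tested. The standard errors given with edgeR are the size of the log2 fold change divided by the square root of the F statistic. For single genes, an exact two-sided permutation test compared mean log2(FPKM + 0.1). Alternatives were DESeq2 1.42.0, limma 3.58.1 on log2(FPKM + 0.1, 0.01 or 1), other scalings, no filter, other sets of mice and a replicate block. The fits were tested on simulated data. Depth limits genes with few counts, such as Cyp27b1, most in FLX replicates 3 to 6. FPKM rest on the same counted fragments, and the table gives no estimate of their counting error.

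The 10 genes and the lists were chosen with earlier results of these data known. Named genes are the 10, each list gene called in any comparison with 5 or 6 PBS mice (or, with fewer than 2, also those of highest mean FPKM), and 3 genes of most similar level for 4 members, of which 2 are not reported here.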

Additional observations from a re-analysis of the deposited data

Results flagged for a closer look

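Single mice stood far from the rest of their group for 12 of 69 combinations of gene and group. The rule was the gap to the nearest mouse relative to the range of the group (Dixon's 95% limit). At that limit 1 in 20 independent combinations, or 3.45 of 69, would be flagged. The 69 are not independent, some of their genes were named by their calls, and PBS replicate 6 was set apart beforehand. The 12 were therefore not tested against 3.45. Of the 12, 6 were in PBS replicate 6, whose markers of the late proximal tubule, injury and neutrophils also stood apart. It had 362 FPKM of Slc34a1 (others 704 to 879), 9.45 of Slc20a2 (5.57 to 6.72), 106 of Alpl (51.4 to 71.3), 161 of Gc (12.6 to 33.6), 8.15 of Trpv5 (4.96 to 6.09) and 57.7 of Prkar1a (40.6 to 46.8). In Ctrl replicate 6, Cyp24a1 was at 12.6 FPKM (35.0 to 42.9 in the other Ctrl mice) and Gc at 17.5 FPKM (9.02 to 11.0). Replicate 5 of both defeated groups had high levels of 2 genes of the cyclic AMP pathway. In PBS replicate 5, Gnas was at 55.9 FPKM (34.4 to 40.4) and Prkaca at 31.3 FPKM (18.5 to 23.0), and in FLX replicate 5, Gnas was at 47.4 FPKM (38.5 to 41.2) and Prkaca at 31.0 FPKM (22.8 to 25.0).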

How the results depend on the processing

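The number of the 10 genes called was 0 in PBS versus Ctrl in all 29 alternative fits and, in FLX versus Ctrl, 1 in all but the fit with FLX replicates 1 and 2 alone, which gave 0. In FLX versus PBS it was 1 with DESeq2 and 1 with all 6 PBS mice, and from 0 to 1 with 1 mouse left out. The number of pathway genes called in FLX versus PBS was 1 with DESeq2 and from 0 to 2 with 1 mouse left out. In FLX versus Ctrl it was 0 with FLX replicates 1 and 2 alone and from 1 to 9 with 1 mouse left out. In PBS versus Ctrl it was from 5 to 9 with 1 mouse left out and 5 with the replicate block. Over all alternatives, 59 of 2001 values of single genes changed their call, 41 losing it and 18 gaining it, and 83 changed sign without being called, none larger than 0.17 on the log2 scale. The cause of these changes was not tested. Over the genes tested, replicate numbers gave no general sign of pairing. Same-numbered mice deviated together with correlations from -0.2045 to 0.2275 (median -0.031), against -0.2146 to 0.1655 (median -0.004) for other pairs. Of 17 mice, 4 correlated best with their own number. A link between same-numbered mice in only some genes was not tested. With the replicate block the log2 fold change of Cyp24a1 was -1.55 in FLX versus Ctrl (edgeR adjusted p = 0.0334) and -1.18 in FLX versus PBS (adjusted p = 0.191), and the calls of Ezr and Prkar1a in PBS versus Ctrl and of Trpv5 in FLX versus Ctrl were lost.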
